A study of Mus musculus with 3 samples.

Results

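The collagen genes of 4T1 cancer stem cell spheroids (CSCsp) were taken as every gene symbol of the form Col, number, a, number that names a transcript line in at least 1 of 3 RNA-seq libraries. There were 41 such genes of 24402 gene symbols in all, carried by 51 RefSeq transcript lines. Levels are FPKM, fragments per kilobase of transcript scaled to library size, summed per gene over these lines. StringTie also assembled transcripts from the reads without a gene name, and 16 of them were placed in collagen genes by exon overlap. Sums with and without them are given, because they carried nearly all reads of some genes. Another 3 collagen genes, Col6a5, Col11a1 and Col22a1, had no gene name in any library and were listed at 0.

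4T1 is a mouse triple negative mammary carcinoma line of Balb/c origin, and CSCsp are spheroids grown for 7 days without attachment, in serum-free medium with 20 ng/ml EGF and 20 ng/ml FGF in every condition, and retained by a 40 µm strainer. Each condition had 1 library: CSCsp exposed to tumor antigen primed splenocytes with activation reinforced by anti-CD3/CD28 dynabeads and IL2 (R), CSCsp exposed to primed splenocytes that had only been kept in saline (P), and CSCsp cultured alone (N). CSCsp were exposed for 2 days, to splenocytes of female Balb/c mice that received 4T1 cells at 8 weeks of age and carried the tumors for 28 days. RNA of 4 independent experiments was combined, so no difference between conditions has a replicate check, an SD or a p-value.

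The R, P and N libraries held 19178982, 17887652 and 17894139 fragments by their aligned bases. The library labelled N was deposited under a name that refers to saline, in which the splenocytes for P were kept, and the library labelled P under a name that refers to no treatment, which may mean that N and P are exchanged. In addition, 1 of 6 pan-leukocyte markers reached 1 FPKM in P, against 4 of 6 in N, which had no co-culture, and 4 of 6 in R. Their sum went the other way, at 39.0 FPKM in R, 36.2 FPKM in P and 32.0 FPKM in N. Most of it was Itgb2, the marker that passed in P, at 34.1 FPKM in R, 35.9 FPKM in P and 26.3 FPKM in N. Cd52, Coro1a and Laptm5 were at 1.08 to 1.94 FPKM in N. The other blood cell lists had their lowest sums in P. Macrophage markers summed to 50.6 FPKM in R, 18.7 FPKM in P and 51.8 FPKM in N. Neutrophil markers summed to 20.1 FPKM in R, 13.0 FPKM in P and 34.9 FPKM in N. Red cell markers summed to 12.1 FPKM in R, 5.24 FPKM in P and 9.86 FPKM in N. No T cell or B cell marker reached 1 FPKM. R, P and N below therefore mean the libraries so labelled, and each direction that involves P or N rests on the labels. All 6 epithelial markers were above 1 FPKM in every library, and their summed level was 1673 FPKM in R, 2003 FPKM in P and 2275 FPKM in N. Of 8 fibroblast and stroma markers 3 reached 1 FPKM in each library, and their summed level was 20.5 FPKM in R, 17.1 FPKM in P and 15.3 FPKM in N. Most of this sum was Pdgfra, from a locus shared with another gene, at 13.3 FPKM in R, 11.5 FPKM in P and 10.3 FPKM in N. Fap and Thy1 were at 0.637 FPKM or lower and Pdgfrb, Lum and Acta2 at 0.144 FPKM or lower. None of 5 endothelial markers reached 1 FPKM. In bulk RNA, fewer cells of a type and less RNA per cell cannot be told apart.

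Collagens are trimers of chains that wind around each other through a repeated Gly-X-Y motif. Fibrillar types give tissues tensile strength, type IV forms the sheet of basement membranes, type VI forms beaded filaments next to cells, and smaller families decorate fibrils or anchor membranes. Chains are hydroxylated on proline and lysine in the endoplasmic reticulum, folded with the chaperone Serpinh1 (HSP47), trimmed outside the cell and cross-linked. In carcinomas fibroblasts are known as the main source of fibrillar collagen, while epithelial cells also make basement membrane collagens.

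By RefSeq lines 9 of the 41 collagens reached 1 FPKM, and each did so in all 3 libraries. This is 22.0% of the collagens, beside 42.9% of all gene symbols. In order of their mean level over the libraries they were Col18a1, Col6a1, Col4a1, Col8a1, Col4a2, Col5a1, Col6a2, Col1a1 and Col12a1. With assembled transcripts 13 of 41 (31.7%, beside 46.4% of all symbols) reached 1 FPKM, adding Col16a1, Col4a5, Col7a1 and Col4a6. Just inside the threshold Col12a1 reached 2.26 FPKM at most by RefSeq lines and Col4a6 1.10 FPKM with assembled transcripts. Just outside it Col9a3 reached 0.813 FPKM.

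**Figure D1:**
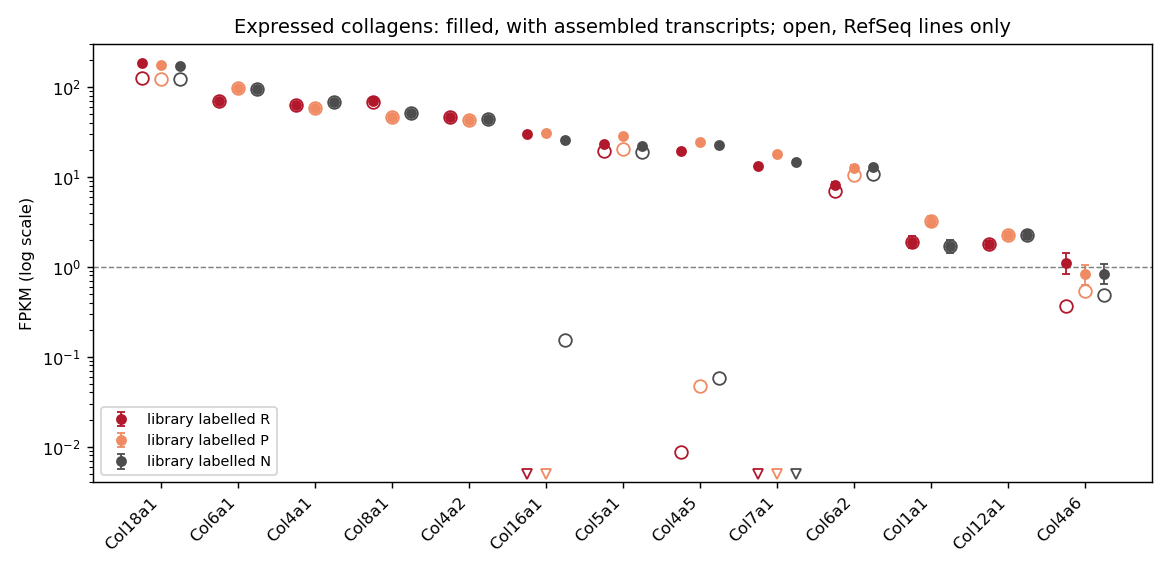
FPKM (log axis) of the 13 expressed collagens in the libraries labelled R, P and N. Filled points include assembled transcripts, with exact 95% Poisson intervals that cover counting error only. Open circles are RefSeq lines alone, open triangles mark RefSeq lines listed at 0, and the dashed line is 1 FPKM. Col16a1, Col4a5 and Col7a1 stand above 10 FPKM in filled points and below 1 FPKM in open ones.

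Summed over the 41 genes, collagen RNA was nearly level, at 535 FPKM in R, 542 FPKM in P and 534 FPKM in N with assembled transcripts. By RefSeq lines the sum was 405 FPKM in R, 408 FPKM in P and 419 FPKM in N. The makeup differed more than the sum. Type VI chains made up 14.6% in R, 20.3% in P and 20.4% in N of collagen FPKM with assembled transcripts, and the chains of types VIII and X, which form hexagonal networks, 12.9% in R, 8.58% in P and 9.66% in N. Type IV chains made up 24.3% in R, 23.3% in P and 25.3% in N, and the fibrillar chains 4.99% in R, 6.23% in P and 4.80% in N.

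Col18a1 (chr10:77052179-77166538) was the most abundant collagen in every library. It encodes the chain of type XVIII, a basement membrane collagen that carries heparan sulfate and whose C-terminal fragment is endostatin. Its RefSeq lines summed to 124 FPKM in R, 122 FPKM in P and 123 FPKM in N, and with assembled transcripts Col18a1 stood at 184 FPKM in R, 173 FPKM in P and 169 FPKM in N. Here and below a ratio is followed by its 95% counting interval, which covers counting error only, and 3 ratios in a row are R/N, P/N and R/P. With assembled transcripts its R/N, P/N and R/P ratios were 1.09 (1.07 to 1.12), 1.02 (1.00 to 1.05) and 1.07 (1.04 to 1.09).

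Col18a1 transcripts have several starts, and nearly all FPKM fell on the upstream one. The RefSeq line from the upstream start carried 124 FPKM in R, 122 FPKM in P and 123 FPKM in N, and the RefSeq line from the downstream start 0.114 FPKM in R, 0.0920 FPKM in P and 0.0666 FPKM in N. An assembled transcript that starts at position 77151778 had 1.00 FPKM in R, 0.152 FPKM in P and 0.490 FPKM in N. Another, from position 77073522, had 0.226 FPKM in R, 0.160 FPKM in P and 2.06 FPKM in N. The bases before both RefSeq starts are shown because levels from these starts lay far apart. They come from RefSeq (GRCm38.p6) and are read on the minus strand, at chr10:77166539-77166780 and chr10:77113706-77113955. Capitals mark matches on either strand to the motif TATAAA, a core promoter element, to the motif CCAAT, bound by the factor NF-Y, or to the motif GGGCGG, bound by Sp family factors.
Upstream start: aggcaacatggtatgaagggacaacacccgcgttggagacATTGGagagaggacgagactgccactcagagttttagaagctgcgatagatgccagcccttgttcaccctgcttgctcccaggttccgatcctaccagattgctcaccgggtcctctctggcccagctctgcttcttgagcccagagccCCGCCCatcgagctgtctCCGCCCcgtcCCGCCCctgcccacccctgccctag
Downstream start: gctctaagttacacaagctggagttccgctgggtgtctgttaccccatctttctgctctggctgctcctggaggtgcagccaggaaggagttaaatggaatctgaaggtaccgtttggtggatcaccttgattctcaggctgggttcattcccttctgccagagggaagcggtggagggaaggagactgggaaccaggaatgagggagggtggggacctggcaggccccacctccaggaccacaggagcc
The upstream window holds 1 CCAAT and 3 GGGCGG matches, none overlapping another, and the downstream window holds no match. In the 250 bases before all 32851 starts of the same table, 33.8% held CCAAT, 32.7% held GGGCGG and 12.4% held TATAAA on either strand. A match describes letters, not a bound site.

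Col18a1 forms also differed by 3 bases at an exon. An assembled transcript with the upstream start used an exon of 129 bases where RefSeq has 132, and StringTie gave it 58.5 FPKM in R, 46.9 FPKM in P and 43.4 FPKM in N. Over all transcripts that span this exon the shorter form took 31.9% in R, 27.2% in P and 26.9% in N of FPKM. The exon (chr10:77058699-77058830, minus strand, GENCODE vM21) is shown with the 3 bases that the shorter form leaves out in capitals.
Col18a1 exon: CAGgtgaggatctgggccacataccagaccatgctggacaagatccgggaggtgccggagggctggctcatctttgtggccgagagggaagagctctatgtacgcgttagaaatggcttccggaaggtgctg
These are shares that StringTie assigned, without a count of reads across each junction.

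Type VI collagen is a trimer of the chains of Col6a1, Col6a2 and a longer chain such as that of Col6a3. Col6a1 (chr10:76708792-76726044) had 70.0 FPKM in R, 97.6 FPKM in P and 95.9 FPKM in N. Its R/N, P/N and R/P ratios were 0.730 (0.704 to 0.757), 1.02 (0.984 to 1.05) and 0.717 (0.692 to 0.744). Col6a2 (chr10:76595756-76623404) had 6.96 FPKM in R, 10.4 FPKM in P and 10.6 FPKM in N by its RefSeq line and 8.12, 12.5 and 12.8 FPKM in R, P and N with an assembled form. Col6a2 ratios, with that form, were 0.635 (0.572 to 0.705), 0.980 (0.892 to 1.08) and 0.648 (0.583 to 0.720) in the same order. Both chains were lowest in R, and their P/N intervals include 1. The epithelial markers were also lower in R than in N in 5 of 6, with a median log2 R/N ratio of -0.45, and their part in the type VI values was not tested.

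Levels per length of the type VI chains were far from equal. Col6a1 stood 8.61, 7.78 and 7.50 times above Col6a2 in R, P and N. Col6a3 was at 0.137 FPKM in R, 0.209 FPKM in P and 0.116 FPKM in N, from 28 (R), 40 (P) and 23 (N) fragments. Of chains that can replace it, Col6a6 had at most 2 fragments in a library and Col6a4 was listed at 0. Col6a1 and Col6a2 lie on the same strand of chromosome 10. The 250 bases before each start (minus strand, chr10:76726045-76726294 and chr10:76623405-76623654) are shown because both genes were lowest in R.
Col6a1: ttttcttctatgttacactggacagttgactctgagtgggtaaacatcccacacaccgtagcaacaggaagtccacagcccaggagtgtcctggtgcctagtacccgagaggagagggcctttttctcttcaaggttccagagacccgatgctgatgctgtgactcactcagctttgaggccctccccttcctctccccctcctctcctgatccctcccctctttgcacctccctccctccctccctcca
Col6a2: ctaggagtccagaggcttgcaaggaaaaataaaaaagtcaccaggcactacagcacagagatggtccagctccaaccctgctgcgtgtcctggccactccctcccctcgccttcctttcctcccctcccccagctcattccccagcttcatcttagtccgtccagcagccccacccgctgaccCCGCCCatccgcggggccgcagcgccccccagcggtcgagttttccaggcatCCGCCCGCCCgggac
The Col6a2 window holds 3 GGGCGG matches, of which the last 2 overlap each other, and the Col6a1 window holds no match.

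Col8a1 (chr16:57624256-57754737), a short-chain network collagen known from vessel walls and the cornea, was highest in R. It had 67.2 FPKM in R, 46.0 FPKM in P and 50.8 FPKM in N by its RefSeq line and 68.9, 46.3 and 51.3 FPKM in R, P and N with an assembled form. Ratios of its RefSeq line were 1.32 (1.27 to 1.37), 0.905 (0.868 to 0.944) and 1.46 (1.41 to 1.52) for R/N, P/N and R/P. Its partner chain Col8a2 was at 0.269 FPKM in R, 0.188 FPKM in P and 0.147 FPKM in N, from 22 (R), 15 (P) and 11 (N) fragments. The 250 bases before the Col8a1 start (minus strand, chr16:57754738-57754987) are shown beside those of the type VI genes because Col8a1 was highest in R where those were lowest.
Col8a1: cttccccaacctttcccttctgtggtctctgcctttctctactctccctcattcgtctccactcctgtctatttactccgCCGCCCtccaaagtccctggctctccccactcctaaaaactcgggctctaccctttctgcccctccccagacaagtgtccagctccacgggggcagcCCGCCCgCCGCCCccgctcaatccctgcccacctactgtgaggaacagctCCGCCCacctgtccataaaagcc
This window holds 4 GGGCGG matches and neither of the other motifs.

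Type IV networks are built most often from the chains of Col4a1 and Col4a2. Col4a1 (chr8:11198423-11312826) had 63.3 FPKM in R, 58.8 FPKM in P and 67.1 FPKM in N, with ratios of 0.943 (0.914 to 0.973), 0.876 (0.848 to 0.905) and 1.08 (1.04 to 1.11). Col4a2 (chr8:11312829-11449287) had 45.9 FPKM in R, 42.5 FPKM in P and 44.4 FPKM in N, with ratios of 1.03 (0.995 to 1.07), 0.955 (0.918 to 0.994) and 1.08 (1.04 to 1.12). Col4a1 stood 1.38, 1.39 and 1.51 times above Col4a2 in R, P and N. The genes lie next to each other on opposite strands and were both close to level.

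Col4a5 (chrX:141475419-141689235), whose chain joins other type IV trimers, was nearly missed by the named lines. Its RefSeq lines summed to 0.00867 FPKM in R, 0.0471 FPKM in P and 0.0585 FPKM in N, whereas with assembled transcripts it had 19.4, 24.1 and 22.8 FPKM in R, P and N, from 2383 (R), 2764 (P) and 2534 (N) fragments. RefSeq lines have an exon that ends at position 141656872 and another that starts at 141666838, and the assembled transcripts end and start these at 141656870 and 141666842. Its ratios with assembled transcripts were 0.853 (0.806 to 0.902), 1.06 (1.00 to 1.12) and 0.804 (0.761 to 0.850). The neighbour Col4a6 (chrX:141165403-141474082), which is read the other way, had 0.365 FPKM in R, 0.534 FPKM in P and 0.489 FPKM in N by its RefSeq line. An assembled transcript of 758 bases brought Col4a6 to 1.10, 0.822 and 0.829 FPKM in R, P and N, and it rests on 11 (R), 4 (P) and 5 (N) fragments. Col4a4 was at 0.0305 FPKM or lower, and Col4a3 was listed at 0.

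Col7a1 (chr9:108953745-108985841), the chain of the anchoring fibrils that tie epithelium to the matrix below, was listed at 0 in every library by its RefSeq line. An assembled transcript had 13.1 FPKM in R, 17.9 FPKM in P and 14.7 FPKM in N, from 2564 (R), 3277 (P) and 2686 (N) fragments, and all of its 119 exons were covered. Its ratios were 0.891 (0.843 to 0.941), 1.22 (1.16 to 1.29) and 0.730 (0.693 to 0.769). The RefSeq line ends an exon at position 108979285 and starts the next at 108979495, and the assembled transcript has both bounds 4 bases further on. The second of these exons (chr9:108979495-108979530, GENCODE vM21) is shown with those 4 bases in capitals.
Col7a1 exon: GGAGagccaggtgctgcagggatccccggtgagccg
The StringTie locus of Col7a1 also holds another gene, so the value may include reads of both. Col17a1, the membrane-spanning collagen of hemidesmosomes, was at 0.392 FPKM in R, 0.188 FPKM in P and 0.280 FPKM in N.

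Col16a1 (chr4:130047840-130099277), a fibril-associated collagen, was listed at 0 in R and P and at 0.155 FPKM in N by its RefSeq line. With 4 assembled transcripts it had 30.2 FPKM in R, 30.8 FPKM in P and 25.9 FPKM in N. Its ratios were 1.17 (1.11 to 1.23), 1.19 (1.12 to 1.25) and 0.983 (0.934 to 1.04). The sums were close, while the forms within them were not. Forms in which exon 3 has 267 bases took 96.6% in R, 78.9% in P and 50.5% in N of Col16a1 FPKM, and forms in which it has 179 took 3.38% in R, 21.1% in P and 49.5% in N. The most abundant long form had 22.2 FPKM in R, 15.7 FPKM in P and 9.67 FPKM in N, and the most abundant short form of N 0.384 FPKM in R, 3.95 FPKM in P and 12.7 FPKM in N. These are again shares that StringTie assigned.

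**Figure D2:**
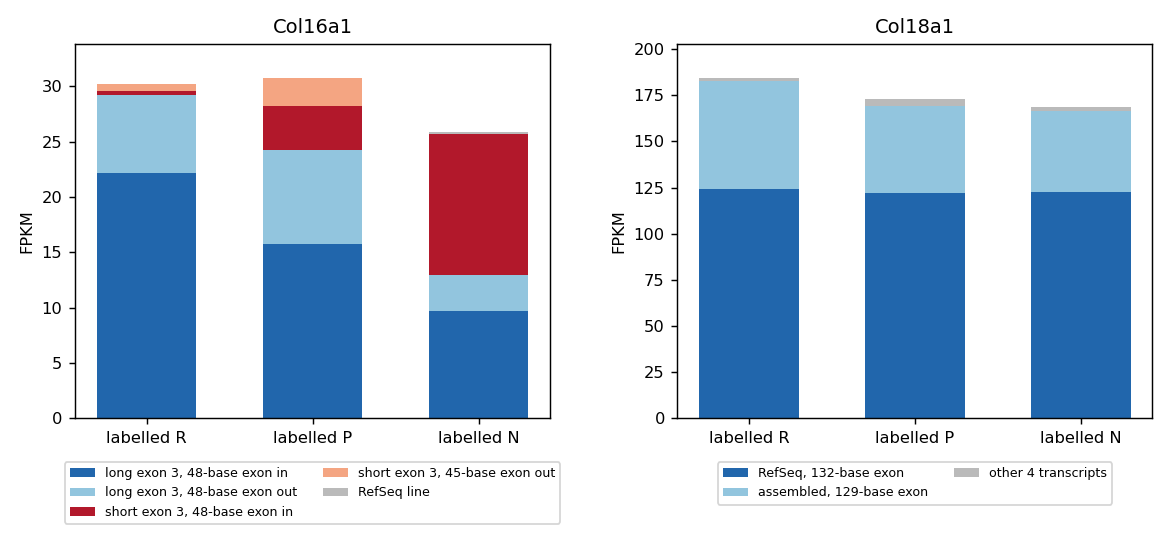
FPKM of the transcript forms of Col16a1 (left) and Col18a1 (right), stacked for the libraries labelled R, P and N. In Col16a1 the forms with the long exon 3 (blue) make up 96.6% in R, 78.9% in P and 50.5% in N. In Col18a1 the RefSeq form with the exon of 132 bases (dark blue) has 124 FPKM in R, 122 FPKM in P and 123 FPKM in N.

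Other exons of Col16a1 set the expressed forms apart from the RefSeq line or from each other, and 3 are shown for that reason. An exon of 45 bases (chr4:130081435-130081479) is in all assembled forms but 1 and not in the RefSeq line. An exon of 51 bases (chr4:130092731-130092781) starts 9 bases earlier in all assembled forms than in the RefSeq line. An exon of 48 bases (chr4:130073069-130073116) is left out of 1 assembled form, which had 7.05 FPKM in R, 8.54 FPKM in P and 3.26 FPKM in N. The sequences are from GENCODE vM21, plus strand. Capitals mark the first 3 of each 9 bases in the exon of 45, the 9 added bases in the exon of 51 and the whole exon of 48.
Exon of 45 bases: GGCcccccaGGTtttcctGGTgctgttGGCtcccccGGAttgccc
Exon of 51 bases: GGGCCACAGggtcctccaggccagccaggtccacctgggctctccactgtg
Exon of 48 bases: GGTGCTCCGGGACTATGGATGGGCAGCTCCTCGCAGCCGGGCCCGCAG
All 3 lengths are multiples of 3. Counted in steps of 9 bases from the first base, GG opens 5 of 5 steps in the exon of 45, 5 of 6 in the exon of 51 and 2 of 6 in the exon of 48. Glycine codons begin with GG, and a Gly-X-Y repeat takes 9 bases.

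Among 10 fibrillar collagens Col5a1 and Col1a1 alone reached 1 FPKM. Col5a1 (chr2:27886425-28039510), whose chain helps start new fibrils, had 19.3 FPKM in R, 20.6 FPKM in P and 19.1 FPKM in N by its RefSeq line. An assembled form that begins upstream had 3.89 FPKM in R, 7.89 FPKM in P and 3.13 FPKM in N, which brought the sums to 23.2, 28.5 and 22.2 FPKM in R, P and N. Its P/N ratio was 1.08 (1.03 to 1.14) by the RefSeq line and 1.28 (1.23 to 1.34) with the assembled form. The usual partner chain Col5a2 had at most 2 fragments in a library.

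Col1a1 (chr11:94936270-94951856), the major chain of type I, had 1.91 FPKM in R, 3.25 FPKM in P and 1.69 FPKM in N, from 172 (R), 273 (P) and 142 (N) fragments. It was the collagen furthest apart among the 13, with R/N, P/N and R/P ratios of 1.13 (0.896 to 1.42), 1.92 (1.56 to 2.36) and 0.587 (0.483 to 0.714). Col1a1 was thus highest in P, with all 51 exons covered in every library. The partner chain Col1a2 was at 0.0716 FPKM in R, 0.102 FPKM in P and 0.0539 FPKM in N and Col3a1, of type III, at 0.0997, 0.122 and 0.0635 FPKM in R, P and N. Col1a1 stood 26.6, 31.8 and 31.4 times above Col1a2 in R, P and N. Of the fibroblast and stroma markers, whose sum was highest in R, Postn alone was highest in P, at 2.66 FPKM in R, 3.06 FPKM in P and 2.40 FPKM in N, and the part of other cells in the Col1a1 value was not tested.

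Col12a1 (chr9:79598987-79718722), which lies along type I fibrils, had 1.77 FPKM in R, 2.25 FPKM in P and 2.26 FPKM in N, with ratios of 0.784 (0.685 to 0.898), 0.999 (0.877 to 1.14) and 0.785 (0.685 to 0.899). Of the 28 collagens below 1 FPKM also with assembled transcripts, 23 had some reads and 5 were listed at 0 (Col4a3, Col6a4, Col19a1, Col20a1 and Col25a1). In 17 of the 28 no library held 10 fragments. A count of 0 allows up to 3 fragments, which is 0.0159 to 0.0396 FPKM for these 5 genes and covers counting error only. The highest 3 below the threshold were chains known from cartilage. Col9a3 had 0.813 FPKM in R, 0.416 FPKM in P and 0.393 FPKM in N, from 44 (R), 21 (P) and 20 (N) fragments. Col11a2 had 0.706 FPKM in R, 0.694 FPKM in P and 0.672 FPKM in N, and Col2a1 0.451 FPKM in R, 0.628 FPKM in P and 0.510 FPKM in N.

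No expressed collagen was 2-fold apart between libraries. By RefSeq lines 0 of 9 were at least 2-fold higher and 0 of 9 at least 2-fold lower in any comparison, at a pseudocount of 0.1 FPKM and among genes that reached 1 FPKM in one library of the pair. Over all genes so tested the shares 2-fold higher and lower were 5.17% and 3.80% (R/N), 2.74% and 3.54% (P/N) and 6.21% and 3.69% (R/P). With assembled transcripts the counts were also 0, of 13 (R/N), 12 (P/N) and 13 (R/P) collagens, beside 3.09% and 1.88%, 0.530% and 1.55% and 4.16% and 1.69% of all genes. With so few members a count of 0 is near these shares. With the highest transcript of each gene alone, Col16a1 was 2-fold higher in R/N (log2 ratio 1.19).

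Median log2 ratios of the 9 collagens were 0.011 (R/N), -0.0072 (P/N) and -0.098 (R/P), beside 0.088, 0.021 and 0.056 over all genes. With assembled transcripts they were 0.048, 0.030 and -0.30, beside 0.077, 0.033 and 0.029. By RefSeq lines the extremes were Col6a2 at -0.60 and Col8a1 at 0.40 (R/N), Col4a1 at -0.19 and Col1a1 at 0.90 (P/N), and Col1a1 at -0.74 and Col8a1 at 0.55 (R/P).

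**Figure D3:**
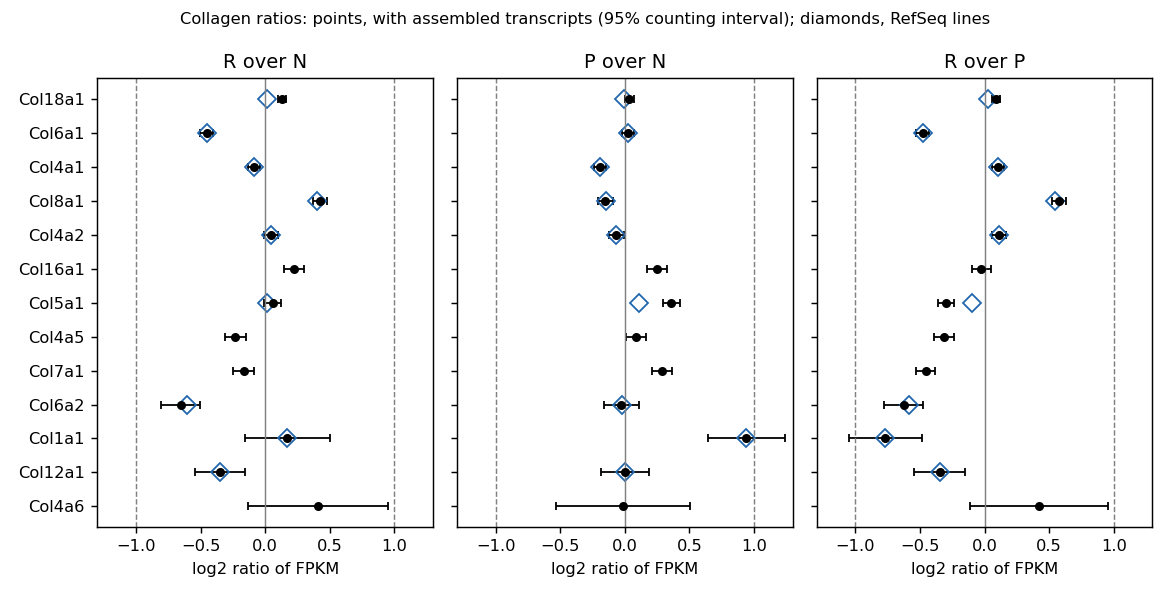
Log2 ratio of FPKM of the 13 expressed collagens for R over N, P over N and R over P, without a pseudocount. Points include assembled transcripts with exact 95% Clopper-Pearson intervals of counting error, diamonds are the RefSeq lines of the 9, and dashed lines mark 2-fold. Points and intervals of Col4a5, Col6a1, Col6a2, Col7a1 and Col12a1 lie left of 0 in the first and last panels. Those of Col8a1 and Col18a1 lie right of 0 in both. The intervals of Col1a1 alone cross a dashed line.

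Coverage along the transcripts was uneven. All exons of the most abundant form were covered in 12 of the 13 expressed collagens, and in Col4a6 33, 32 and 44 of 45 exons were covered in R, P and N. With transcripts cut in 5 equal stretches, the last had 0.239 (R), 0.243 (P) and 0.240 (N) times the coverage of the first in Col5a1 and 0.273 (R), 0.313 (P) and 0.254 (N) times in Col4a5, but 1.31 (R), 1.23 (P) and 1.35 (N) times in Col6a1 and 2.24 (R), 1.62 (P) and 2.69 (N) times in Col1a1. In Col4a6 it was 0.471 (R), 0.110 (P) and 0.246 (N) times.

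Among the enzymes that hydroxylate collagen chains 3 genes, P4ha2, Plod2 and P3h2, were 2-fold apart in at least 1 comparison. By comparison 0 were 2-fold higher and 1 lower in R/N (beside 3.09% and 1.88% of all genes), 0 higher and 1 lower in P/N (beside 0.530% and 1.55%), and 1 higher and 2 lower in R/P (beside 4.16% and 1.69%). Levels of partner genes are sums with assembled transcripts. Of 12 prolyl and lysyl hydroxylases and their partners 11 reached 1 FPKM, with 5 above and 6 below 0 in log2 R/N. Their median log2 ratios were -0.080, 0.068 and -0.12 (R/N, P/N and R/P), to be read beside those of all genes above. P4ha2, a catalytic subunit of prolyl 4-hydroxylase, had 34.8 FPKM in R, 78.3 FPKM in P and 69.8 FPKM in N, an R/N ratio of 0.498 (0.468 to 0.531), and was the only member 2-fold lower in R/N. That call lies at the threshold and is lost with TPM (log2 ratio -0.96), a pseudocount of 1 (-0.98) and RefSeq lines alone (-0.98). P4ha1, the main catalytic subunit, had 126 FPKM in R, 235 FPKM in P and 218 FPKM in N, while its RefSeq lines alone had 21.5, 23.0 and 23.5 FPKM in R, P and N. P4hb, the second subunit and a disulfide isomerase, had 248 FPKM in R, 335 FPKM in P and 382 FPKM in N. Its RefSeq lines alone had 247, 299 and 304 FPKM in R, P and N, which moved its log2 R/N ratio from -0.62 to -0.30.

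Lysyl hydroxylases did not share a direction. Plod2, which hydroxylates the telopeptides used in cross-links, had 32.0 FPKM in R, 67.5 FPKM in P and 58.3 FPKM in N, and Plod1 26.1 FPKM in R, 34.7 FPKM in P and 30.3 FPKM in N. Plod3, which also adds sugars to hydroxylysine, had 80.5 FPKM in R, 53.0 FPKM in P and 61.9 FPKM in N, from a StringTie locus that also holds another gene. Of the prolyl 3-hydroxylases, P3h2 had 8.11 FPKM in R, 2.87 FPKM in P and 6.47 FPKM in N, 2-fold lower in P/N and 2-fold higher in R/P. At a pseudocount of 1 its log2 P/N ratio was -0.95, short of 2-fold. P4ha2 and Plod2 were 2-fold lower in R/P. No other member was 2-fold apart in any comparison by these sums. With the highest transcript of each gene alone, P4ha1 was 2-fold lower in R/P (log2 ratio -1.02) and Plod2 in R/N (-1.19).

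**Figure D4:**
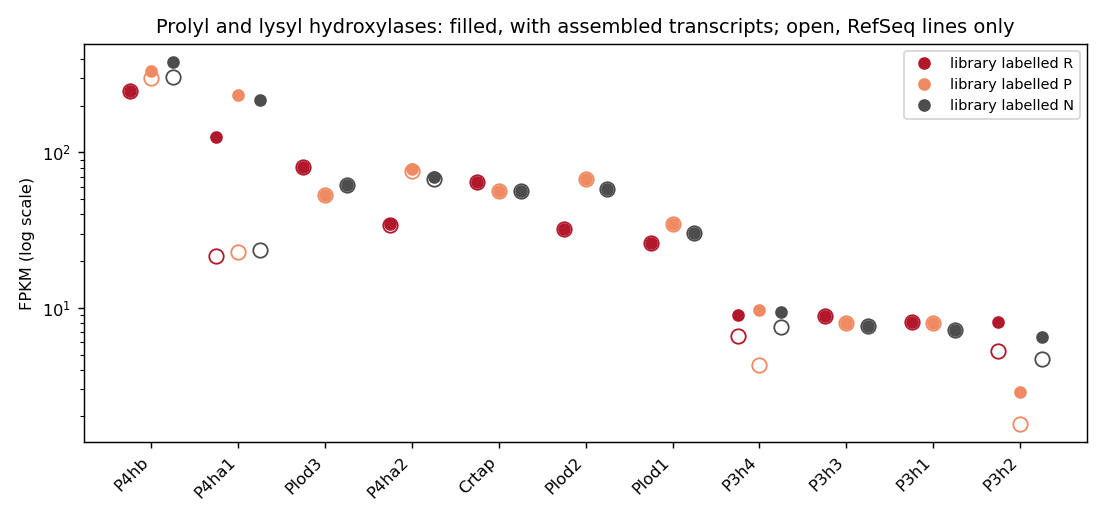
FPKM (log axis) of the 11 expressed prolyl and lysyl hydroxylase genes in the libraries labelled R, P and N, with assembled transcripts (filled) and by RefSeq lines alone (open). P4ha2 and Plod2 are lowest in R in both forms, P4ha1 is at 126 FPKM in R against 235 FPKM in P and 218 FPKM in N in filled points, with open points close together, and Plod3 is highest in R.

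Genes of glycosylation, folding and export were close to level. Of 15 listed genes 11 reached 1 FPKM, and 0 were 2-fold apart in any comparison, with medians of 0.038, -0.060 and 0.037. Over all genes 3.09% were 2-fold higher and 1.88% lower in R/N. The shares were 0.530% and 1.55% in P/N and 4.16% and 1.69% in R/P, and a count of 0 is near them. Serpinh1 had 115 FPKM in R, 116 FPKM in P and 112 FPKM in N. Ppib, a prolyl isomerase, was the highest at 278 FPKM in R, 217 FPKM in P and 261 FPKM in N. Furthest apart in R/N were Kdelr2, Sec13 and Klhl12, at log2 ratios of -0.20, 0.20 and -0.18. By RefSeq lines alone Klhl12 was at 0.16 and Serpinh1 at -0.13, on the other side of 0 from their sums. The Klhl12 value comes from 0.154 FPKM in R and 0.127 FPKM in N, below 1 FPKM.

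Outside the cell, procollagen is trimmed by Adamts and Bmp1 proteases and cross-linked by lysyl oxidases. Of 14 listed genes 7 reached 1 FPKM, with medians of 0.082, 0.069 and 0.27. Adamts14, an N-propeptidase of fibrillar procollagen, had 16.8 FPKM in R, 6.51 FPKM in P and 7.84 FPKM in N. Its R/N ratio was 2.15 (1.97 to 2.35), and it was the only member 2-fold higher in R/N and in R/P (beside 3.09% and 4.16% of all genes). Bmp1, the C-propeptidase, had 106 FPKM in R, 137 FPKM in P and 129 FPKM in N. Of the lysyl oxidases, Loxl3 had 43.1 FPKM in R, 34.2 FPKM in P and 27.6 FPKM in N, from a shared locus, and Loxl4 39.3 FPKM in R, 32.6 FPKM in P and 37.1 FPKM in N, while Lox and Loxl2 were at 0.0209 FPKM or lower.

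Of 12 collagen receptors 7 reached 1 FPKM, 5 of them above 0 in log2 R/N, with medians of 0.47, 0.22 and 0.12. Ddr1 gave the R/N median, and its R/N direction turns by RefSeq lines alone, to a log2 ratio of -0.35. These lines of Ddr1 had 8.22 FPKM in R and 10.5 FPKM in N. Itgb1, the integrin chain that collagen receptors share, was highest at 154 FPKM in R, 142 FPKM in P and 149 FPKM in N. Itga1, a collagen-binding integrin chain, had 6.05 FPKM in R, 5.79 FPKM in P and 3.60 FPKM in N, from a shared locus. Itga10, another, had 2.95 FPKM in R, 6.75 FPKM in P and 5.77 FPKM in N, and Adgrg1, a receptor of type III collagen, 5.56 FPKM in R, 11.3 FPKM in P and 8.98 FPKM in N. By sums with assembled transcripts Itga10 and Adgrg1 were 2-fold lower in R/P (1.69% of all genes were), and no other receptor was 2-fold apart. At a pseudocount of 1 neither was, with log2 R/P ratios of -0.97 for Itga10 and -0.90 for Adgrg1, which was at -0.42 by its highest transcript alone. By that transcript the log2 R/N ratio of Adgrg1 went from -0.68 to 1.11, so its R/N direction turns. By RefSeq lines alone Itga10 had 0.389 FPKM in R, 1.23 FPKM in P and 0 FPKM in N, so its R/N direction turns, at levels below 1 FPKM in both. RefSeq lines of Ddr2 had 9.03 FPKM in R, 0.0597 FPKM in P and 0.0667 FPKM in N. They put Ddr2 2-fold higher in R/N and R/P, at log2 ratios of 5.77 and 5.84. Of all genes by RefSeq lines 5.17% and 6.21% were. The sums of Ddr2 gave log2 ratios of 0.50 and 0.27.

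Basement membrane partners were abundant. Of 15 laminin and related genes 10 reached 1 FPKM and 0 were 2-fold apart in R/N, with medians of 0.017, -0.043 and 0.23. Over all genes 3.09% were 2-fold higher and 1.88% lower in R/N, and with so few members a count of 0 is near these shares. Lama3, a laminin chain of epithelium, had 17.1 FPKM in R, 7.38 FPKM in P and 12.7 FPKM in N and was the only member 2-fold apart in R/P. It was higher there (log2 ratio 1.20), as were 4.16% of all genes, while 1.69% were 2-fold lower. Its RefSeq lines alone gave 0.36, from 0.0881 FPKM in R and 0.0470 FPKM in P. Agrn, a heparan sulfate proteoglycan, had 139.8 FPKM in R, 106 FPKM in P and 97.4 FPKM in N, and Lama4 1.42 FPKM in R, 0.968 FPKM in P and 0.966 FPKM in N. The nidogens Nid1 and Nid2, which bridge laminin and type IV collagen, were at 0.0993 FPKM or lower.

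All 5 hemidesmosome partners were expressed. By sums with assembled transcripts their medians were 0.35, 0.14 and 0.34, and 0 of them were 2-fold apart. Over all genes 3.09% were 2-fold higher and 1.88% lower in R/N, 0.530% and 1.55% in P/N and 4.16% and 1.69% in R/P. With 5 members a count of 0 is near these shares. Cd151, a tetraspanin, was highest at 91.98 FPKM in R, 72.6 FPKM in P and 81.0 FPKM in N, and Plec, Itga6 and Dst were at log2 R/N ratios of 0.59, 0.49 and 0.35. By RefSeq lines alone Plec was at -0.11 and Dst at -0.57, but these lines were below 1 FPKM. They had 0.0145 FPKM in R and 0.0234 FPKM in N for Plec, and 0.517 FPKM in R and 0.814 FPKM in N for Dst. Itgb4 had 50.8 FPKM in R, 69.2 FPKM in P and 51.9 FPKM in N by its sum. Its RefSeq lines alone had 11.4 FPKM in R, 42.5 FPKM in P and 16.9 FPKM in N. By these lines it was 2-fold higher in P/N (log2 ratio 1.33) and 2-fold lower in R/P (-1.89). Of all genes by RefSeq lines 2.74% and 3.69% were. The loci of Cd151 and Dst are shared with other genes. Pxdn, the peroxidase that cross-links type IV collagen, had 20.2 FPKM in R, 20.8 FPKM in P and 18.4 FPKM in N, and Qsox1, a sulfhydryl oxidase, 95.03 FPKM in R, 62.1 FPKM in P and 113 FPKM in N. Of 8 small leucine-rich proteoglycans, which coat fibrils, Dcn alone reached 1 FPKM in every library, at 3.03 FPKM in R, 2.27 FPKM in P and 2.09 FPKM in N.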

How the data were processed

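RNA of CSCsp was sequenced in 3 libraries, grouped by their labels. The authors aligned reads with HISAT2 2.2.0 and quantified transcripts with StringTie (2.1.3 in the submitters' notes, 2.1.5 per the file headers), and deposited coverage, FPKM and TPM for 34970 RefSeq and 12520 assembled transcripts. The notes name mm9, but 1804 of 1860 RefSeq collagen exons have GENCODE vM21 bounds, so positions are given as GRCm38.

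FPKM was summed per gene. Assembled transcripts went to the gene with the largest exon overlap on their strand, and 3168 were left out, with 10.7%, 12.3% and 12.2% of FPKM in R, P and N. Fragments are aligned bases over 300, the most common amount on the lowest transcripts. Steps were tested on simulated data. Alternatives were TPM, pseudocounts of 1 and 0.01, a filter of 5 or none, rescaling, other transcript sums, unshared loci, and N and P exchanged. Named were all expressed collagens, the highest 3 of the others and, per partner list, the highest member and the 3 furthest apart in R/N. Further genes were named after their values were seen, and 1 gene that the rule names is not reported here. Members and lists were chosen with earlier results of these data known. The promoter table held 33 of the 41 genes. Software was Python 3.11.15 with pandas 2.3.3, NumPy 2.4.6, Matplotlib 3.10.9 and SciPy 1.17.1.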

Additional observations from a re-analysis of the deposited data

How the results depend on the processing

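The number of collagens at 1 FPKM or above was 9, and it was 15 on the TPM scale and 35 with any value above 0. The count of 0 collagens 2-fold apart became 1 higher in R/N with TPM (Col9a3, log2 ratio 1.03) and 1 higher in R/N with the highest transcript of each gene alone (Col16a1, 1.19). With no filter it became 1 lower in R/N and 1 lower in P/N (the RefSeq line of Col16a1, -1.35 in both). The median log2 R/N ratio became -0.098 with N and P exchanged. The median log2 R/P ratio became 0.025 with a filter of 5, -0.30 with assembled transcripts, -0.21 with the highest transcript alone and 0.011 with N and P exchanged. The log2 P/N ratio of P3h2, -1.14, became 1.14 with N and P exchanged, by construction. P4ha1 had a log2 R/N ratio of -0.79 and of -0.13 by RefSeq lines alone, and P4ha2 fell short of 2-fold with TPM (-0.96), a pseudocount of 1 and RefSeq lines alone. Apart from exchanges, the cause was not tested. No library could be left out, and no paired analysis was possible because each condition has 1 library.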
